A study of Mus musculus with 2 samples.

Results

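Cluster 10 is one of the cell clusters that the study defined among interstitial cells of the infarcted mouse ventricle. It is counted among the T cell clusters of the study, which reports it as enriched for proliferation markers. Its members here were all 1691 genes listed in the deposited comparison of the 2 genotypes within that cluster, of 6477 genes listed in any of the 18 cluster comparisons. For each gene the comparison gives the share of cells with the transcript in each library. The spacing of these shares placed 186 cells of the cluster in one library and 11 in the other, 197 of the 6020 cells counted in the same way over the 18 clusters.

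Both libraries came from hearts of mice aged 8 to 10 weeks that carried PostnMCM, a Cre recombinase made from the Postn locus that acts only in the presence of tamoxifen, and the R26-eGFP reporter. Both groups had a myocardial infarction (MI) by ligation of a coronary artery and ate chow with tamoxifen citrate at 0.4 g/kg from then on. The control library carried no floxed Yap1 or Wwtr1. The other library was Yapfl/fl;Wwtr1fl/+;PostnMCM, with both Yap1 alleles and 1 Wwtr1 allele floxed, and is called here the library labelled Yap/Wwtr1-depleted, or labelled depleted. Postn drives the Cre in activated fibroblasts, so T cells are not the cells the design targets. The labels give collection at 6 days after injury, and the study's methods give it 1 day later. Live cells were sorted and run on the 10x Chromium system, which captures the 3′ end of transcripts. There was 1 library per group, with no replicates, and nothing says how many hearts each library held. The values below therefore describe 2 libraries, and no test of genotype was possible.

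T cells recognise peptides through the T cell receptor, whose CD3 and zeta chains pass the signal to the kinases LCK and ZAP-70. In the thymus, developing T cells assemble the receptor genes with the RAG recombinase and terminal deoxynucleotidyl transferase, test the first chain with the pre-T cell receptor, and divide in between. Dividing cells copy their DNA in S phase with the MCM, CDC45 and GINS helicase, and part it in mitosis with kinetochore and spindle proteins.

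The cell numbers set what can be read from the shares. In the control library 1 cell was worth 9.09 percentage points, and in the library labelled depleted 0.538 points. A control share of 0 of 11 cells allows a share of up to 27.3%, and the exact 95% Clopper-Pearson interval of 3 of 11 control cells, 27.3%, ran from 6.02% to 61.0%. For 5 of 11 control cells, 45.5%, it ran from 16.7% to 76.6%, and for 10 of 11, 90.9%, from 58.7% to 99.8%. These intervals rest on the inferred cell numbers and cover counting error only. Cluster 10 made up 5.94% of all inferred cells labelled depleted and 0.381% of all inferred control cells. Control cells were 5.58% of the cluster. In 15 of the 18 clusters they were 37.6% to 78.1% of the cells, and in the other 3, clusters 6, 9 and 10, under 10%. A further cluster of the study had no comparison because it held only 3 cells labelled depleted, and it is not counted here. A cluster held mostly by 1 library may be that library and not a cell type, and with 1 library per group these cannot be told apart.

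**Figure D1:**
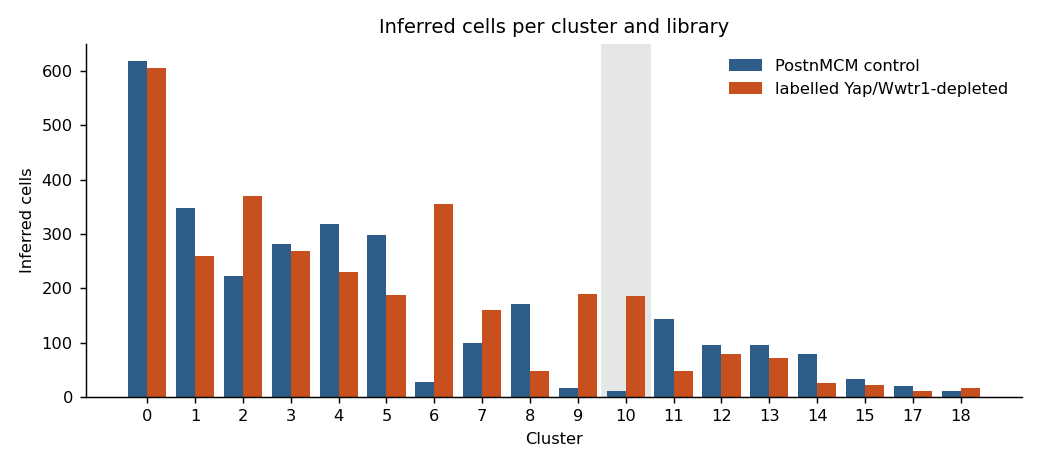
Bars give the number of cells (y axis, inferred from the spacing of the deposited shares) in each of the 18 clusters (x axis) for the PostnMCM control library and the library labelled Yap/Wwtr1-depleted. Cluster 10, shaded, held 11 control cells and 186 cells of the library labelled depleted.

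The genes listed were set beside the study's naming of the cluster. Listing depends on a difference between the libraries, so the number of markers listed cannot check that name. Of 14 T cell markers, 5 were listed, and of 8 proliferation markers, 2. Cd3g, a CD3 chain, was found in 98.9% of the cells labelled depleted and in 100% of the control cells, and Mki67, the proliferation marker Ki-67, in 84.9% and 90.9%. Top2a, Trac, Trbc1, Trbc2, Cd3d and Cd8a were not listed for cluster 10. The study itself reports Top2a and Mki67 as enriched in this cluster. A gene is listed only where it passed the study's limits on detection and on the size of its difference, so a gene not listed has no value there. Yap1, Wwtr1 and Postn were listed in no cluster. In the 4 fibroblast subclusters for which shares are deposited for every gene, the share of cells with Yap1 was lower in the library labelled depleted in 1 subcluster, 40.0% against 57.5%, and higher in the other 3. The share of cells with Wwtr1 was lower in 3 of them, at 91.3% against 93.3%, 60.0% against 80.0% and 85.7% against 100%, and higher in the other, at 90.6% against 81.4%. The cell numbers of these subclusters are not given here. By staining of the scar, the study reported less nuclear Yap and Wwtr1 protein in reporter-marked myofibroblasts of the floxed genotype. Shares of cells with a transcript do not measure that protein.

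Across the 1691 genes the median share was 40.9% of the cells labelled depleted and 36.4% of the control cells. The share was higher in the library labelled depleted for 865 genes, lower for 794 and equal for 32, of which 30 were at 100% in both. The median difference, labelled depleted minus control, was 1.8 points, with quartiles at -15.5 and 19.4. A difference of at least 20 percentage points, a little over 2 control cells, was reached by 400 genes in the higher direction, 23.7% of those listed, and by 277 in the lower direction, 16.4%. Around that size, Pold3 was just inside at 38.2% against 18.2%, Ubr4 just outside at 29.0% against 9.1%, Actn4 just inside at 52.7% against 72.7% and Dpy19l1 just outside at 7.5% against 27.3%. The control library had 61 genes at 0, and all of them passed 20 points because a gene had to be found in at least 25% of the cells of 1 library to be listed. In all, 384 genes met that detection limit through the library labelled depleted alone and 306 through the control library alone, so the direction of their difference came with the listing. This holds for every gene given below with a share under 25% in 1 of the libraries. Only Chil3, which encodes a chitinase-like protein of myeloid cells, was at 0 in the library labelled depleted, at 0 of 186 cells, which allows a share of up to 1.61%, and it was at 27.3% of control cells.

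**Figure D2:**
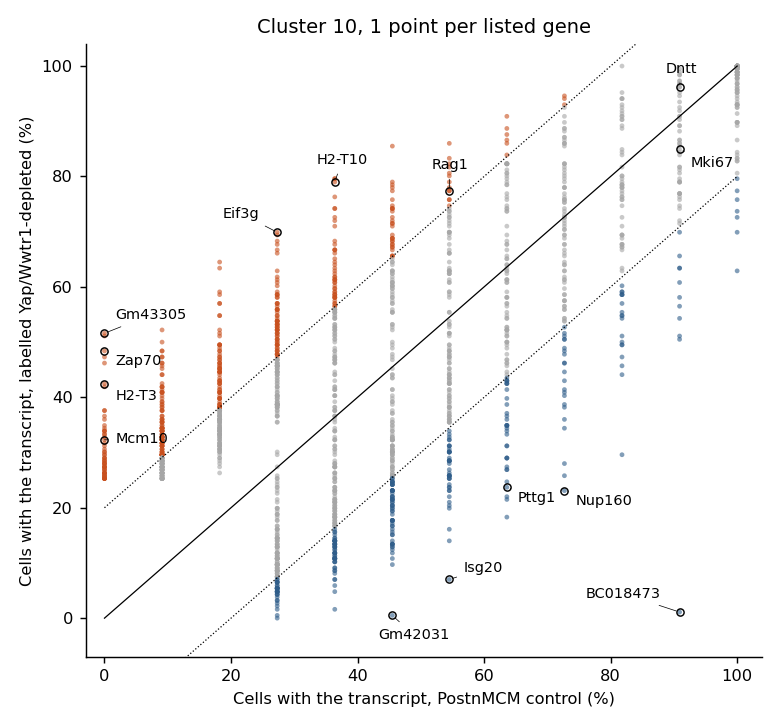
Each point is 1 of the 1691 genes listed for cluster 10, by the percent of PostnMCM control cells (x axis) and of cells labelled Yap/Wwtr1-depleted (y axis) with the transcript. The solid line marks equal shares and the dotted lines 20 points either way, with genes past them in orange (higher in the library labelled depleted) or blue (lower). The control shares stand in 12 columns, 1 for each number of control cells from 0 to 11, and the empty lower left corner is the detection limit of the listing.

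Among the genes of the T cell receptor and its coreceptors, 9 of 24 were listed, 4 of them higher by at least 20 points and none lower, with a median difference of 19.8 points. The 4 were 44.4% of those listed, beside 23.7% of all genes. Zap70 (chromosome 1, 36800837 to 36821905, GRCm39) was found in 48.4% of the cells labelled depleted (41.0% to 55.8%) and in 0 of 11 control cells. Cd6, a T cell surface receptor, was at 34.4% against 9.1% and Cd4, the coreceptor for MHC class II, at 48.9% against 27.3%. Cd3e was at 94.6% against 72.7%, Lck at 92.5% against 72.7%, and Cd247, the zeta chain, at 80.6% against 72.7%. Zap70 and Cd6 met the detection limit through the library labelled depleted alone, so their direction came with the listing, while the CD3 chains and Lck were found in most cells of both libraries. The costimulatory receptors Cd28, at 60.8% against 54.5%, and Cd27, at 65.1% against 63.6%, differed by less than 1 control cell. For Zap70 the only other listing was in cluster 7, at 36.5% against 47.5%.

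Of 30 genes for T lineage factors and receptor gene recombination, 11 were listed, 3 higher by at least 20 points and none lower, with a median difference of 9.6 points. The 3 were 27.3% of those listed, near the 23.7% of all genes. Dntt (chromosome 19, 41017714 to 41047964), the terminal transferase, was in 96.2% of the cells labelled depleted (92.4% to 98.5%) and in 90.9% of the control cells. Rag1 (chromosome 2, 101468603 to 101479877), a subunit of the recombinase, was in 77.4% (70.7% to 83.2%) and in 54.5%. Ptcra (chromosome 17, 47066578 to 47074902), the pre-T cell receptor alpha chain, was in 49.5% (42.1% to 56.9%) and in 27.3%. These genes, known from developing T cells of the thymus, were thus found in cells of both libraries. Among transcription factors, Tcf7 was at 99.5% against 100%, Sox4 at 86.0% against 63.6%, Myb at 82.3% against 72.7% and Gata3 at 34.4% against 36.4%. Each control share of Rag1, Ptcra and Sox4 lay below that of the library labelled depleted by the worth of 2 to 3 control cells, and its interval holds the other library's share. Rag1 was also listed in cluster 6, at 72.4% against 63.0%, in cluster 9, at 65.1% against 41.2%, and in cluster 18, a neutrophil cluster in the study, at 29.4% against 0 of 11 cells. Dntt was also listed in cluster 15, which the study left unnamed, at 86.4% against 87.5%. Clusters that do not list these transcripts give no value for them, and the depth per cell is not known. Of 26 cytotoxic and effector genes only Gzma, granzyme A, was listed, at 59.7% against 36.4%, and none of the 7 regulatory T cell genes was.

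**Figure D3:**
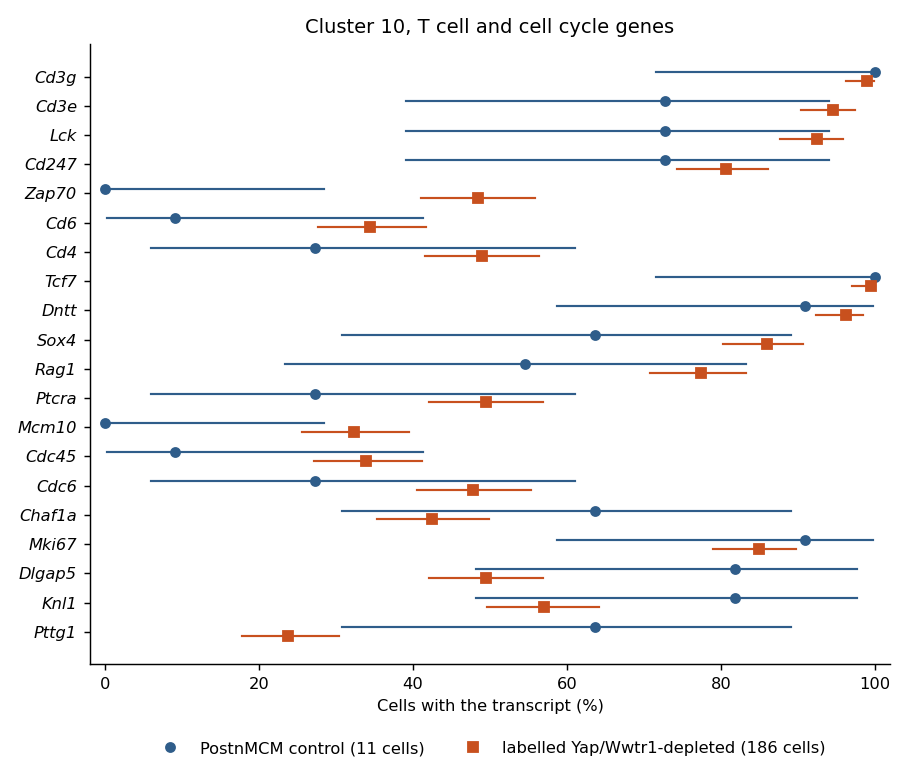
Points give the percent of cells of cluster 10 with each transcript (x axis) for T cell and cell cycle genes (y axis), circles for the PostnMCM control library and squares for the library labelled Yap/Wwtr1-depleted. Lines are exact 95% Clopper-Pearson intervals on 11 and 186 inferred cells and cover counting error only. The wide control intervals hold the other library's share for Rag1 and Ptcra. The 2 lines do not meet for Zap70 and Pttg1. Both genes met the detection limit of the listing through 1 library alone, so their direction came with the listing.

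Of 59 S phase genes, 23 were listed, 6 higher and 2 lower by at least 20 points, with a median difference of 10.1 points. The 6 were 26.1% of those listed, near the 23.7% of all genes, and 6 S phase genes met the detection limit through the library labelled depleted alone. Mcm10, needed to start the replicative helicase, was in 32.3% of the cells labelled depleted and in 0 of 11 control cells. The helicase genes Gins4, at 36.6% against 9.1%, Gins1, at 35.5% against 9.1%, and Cdc45, at 33.9% against 9.1%, were each found in 1 control cell. Cdc6, which loads the MCM helicase, was at 47.8% against 27.3%, and Pold3, a subunit of DNA polymerase delta, stood just past 20 points. The lower ones were Gins3, a further GINS subunit, at 13.4% against 36.4%, and Chaf1a, of the chromatin assembly factor, at 42.5% against 63.6%. Of the 6 higher genes, 5 met the detection limit through the library labelled depleted alone, all but Cdc6, and Gins3 met it through the control library alone, so that their directions came with the listing.

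Of 75 G2 and M phase genes, 18 were listed, none higher and 3 lower by at least 20 points, with a median difference of -5.75 points. The 3 were 16.7% of those listed, near the 16.4% of all genes. Pttg1, which encodes securin, was in 23.7% of the cells labelled depleted (17.7% to 30.4%) and in 63.6% of the control cells, and met the detection limit through the control library alone. The spindle gene Dlgap5 was at 49.5% against 81.8% and the kinetochore gene Knl1 at 57.0% against 81.8%. Ccnb1, cyclin B1, was at 45.2% against 54.5%, about the worth of 1 control cell, and Cenpf at 60.8% against 63.6%. Of 12 replication-dependent histone genes listed, 2 were higher and 2 lower by at least 20 points, with a median difference of -12.15 points. That was 16.7% each way, beside 23.7% higher and 16.4% lower of all genes, and 5 of the 12 met the detection limit through the control library alone, the lower 2 among them, while H2ac22 met it through the library labelled depleted alone. H2ac22 was at 57.0% against 18.2% and H1f4 at 55.9% against 27.3%, while H2ac11 was at 14% against 36.4% and H2bc8 at 5.4% against 27.3%.

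MHC class I genes held some of the widest differences, and some of them are near copies of each other. Of 21 such genes, 9 were listed, 3 higher and 2 lower by at least 20 points, with a median difference of -9.5 points. That was 33.3% higher and 22.2% lower, beside 23.7% and 16.4% of all genes. H2-T10 (chromosome 17, 36426768 to 36432357) was in 79.0% of the cells labelled depleted (72.5% to 84.6%) and in 36.4% of the control cells. H2-T22 (36348020 to 36353650 on the same chromosome), a nonclassical class I gene, was at 61.3% against 36.4%. H2-T3 (36496464 to 36501179), which encodes the thymus leukaemia antigen, was at 42.5% against 0 of 11 cells. On the lower side were H2-T23 (36340229 to 36345571), the Qa-1 gene, at 49.5% against 81.8%, and H2-Q6 (35643777 to 35655332) at 2.7% against 27.3%. H2-T3 and H2-Q6 met the detection limit through 1 library alone, which set their direction. The classical genes differed less, with H2-K1 at 54.3% against 63.6% and H2-D1 at 69.4% against 81.8%. The H2-T10 transcript matches that of H2-T22 at 97.4% of 1685 aligned bases, so reads of one may be counted for the other, or dropped. To show how closely they match, the 90 aligned bases with the most differences within a coding exon of H2-T22 and the matching exon of H2-T10 are given. Both are read from the reverse strand of GRCm39, chr17:36430216-36430305 and chr17:36351505-36351594, with the 9 differing bases in capitals, and say nothing of where reads fell.
H2-T10: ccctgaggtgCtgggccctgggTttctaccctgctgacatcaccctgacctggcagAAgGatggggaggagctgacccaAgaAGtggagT
H2-T22: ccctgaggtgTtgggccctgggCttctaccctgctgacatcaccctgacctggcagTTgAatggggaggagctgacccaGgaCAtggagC

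The widest difference in each direction was that of a transcript annotated as a noncoding RNA. Protein-coding genes listed in few clusters, such as Zap70 and Nup160, were also among the widest. BC018473 (chromosome 11, 116642993 to 116650199), annotated as a long noncoding RNA, was in 1.1% of the cells labelled depleted (0.130% to 3.83%) and in 10 of 11 control cells, 90.9%. It was listed in 15 other clusters, where it was in at most 0.6% of the cells labelled depleted and in 29.0% to 100% of the control cells. Gm42031, a noncoding RNA of chromosome 8, was at 0.5% against 45.5%, and in 7 other clusters at 0 to 13.6% against 27.0% to 48.1%. In the other direction, the noncoding RNA Gm43305 (chromosome 14, 54529898 to 54534949) was in 51.6% of the cells labelled depleted and in 0 of 11 control cells. It lies on the chromosome that holds the T cell receptor alpha constant gene Trac (54457978 to 54461663), and in 4 other clusters it was at 33.9% to 66.8% against 0 to 0.5%. All clusters share the same 2 libraries, so the other listings are no independent check.

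Some processed pseudogenes, which are copies of spliced transcripts, were also higher by at least 20 points, while others differed by less. They were not counted as a list. Ftl1-ps2 was in 47.3% of the cells labelled depleted and in 0 of 11 control cells, and was listed in all 18 clusters, at 28.3% to 100% against 0 to 5.2% in the other 17. Its parent Ftl1, the ferritin light chain, was at 97.8% against 100% in cluster 10. Gm7429 was at 51.1% against 0 of 11 cells and matches Rpl30 at 98.9% of 348 bases, while Rpl30 itself was at 100% in both libraries. Rpl34-ps1 was at 52.2% against 9.1% and Rpl27a-ps4 at 85.5% against 45.5%. Gm15682, at 90.9% against 72.7%, and Gm15501, at 100% in both, complete the 5 genes listed in at least 17 clusters with Ftl1, Ftl1-ps2 and Rpl27a-ps4. Rnaset2b, a lysosomal ribonuclease gene, was at 46.2% against 0 of 11 cells, and its transcript matches that of Rnaset2a at 99.5% of 2760 bases. Rnaset2a was itself at 46.8% against 27.3%. Rnaset2b was found in many control cells elsewhere, at 42.3% against 55.8% in cluster 13 and 65.4% against 50.6% in cluster 14. Reads of such copies cannot be assigned with certainty. Ftl1-ps2 matches Ftl1 at 97.8% of 549 bases, and the 90 with the most differences are shown, with the 4 differing bases in capitals, from the reverse strands of chr10:130428349-130428438 and, within a coding exon of Ftl1, chr7:45108531-45108620.
Ftl1-ps2: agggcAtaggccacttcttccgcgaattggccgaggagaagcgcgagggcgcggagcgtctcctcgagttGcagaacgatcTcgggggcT
Ftl1: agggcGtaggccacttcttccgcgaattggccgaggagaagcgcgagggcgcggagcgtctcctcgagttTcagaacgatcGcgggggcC

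**Figure D4:**
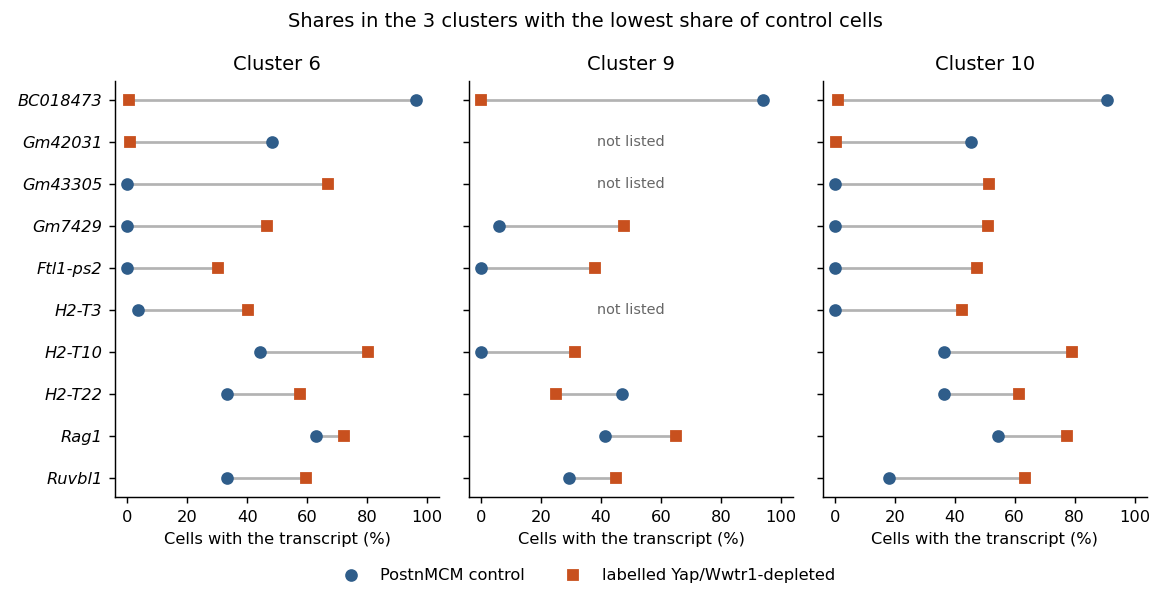
Points give the percent of cells with each transcript (x axis) in clusters 6, 9 and 10, circles for the PostnMCM control library and squares for the library labelled Yap/Wwtr1-depleted. BC018473 was at or under 1.1% of the cells labelled depleted in all 3 clusters and above 90% of the control cells, and H2-T22 was higher in the library labelled depleted in clusters 6 and 10 and lower in cluster 9.

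The remaining genes with the widest differences have diverse roles. On the lower side, Isg20, an interferon-induced exonuclease, was at 7.0% against 54.5%, Eif2ak1, a kinase of the translation factor eIF2, at 18.3% against 63.6%, and S100a6, a calcium-binding protein, at 28.0% against 72.7%. The chloride transporter gene Clcn3 was at 22% against 63.6%, the phospholipid enzyme gene Lpcat3 at 14% against 54.5%, and the Golgi mannosidase gene Man1a2 at 50.5% against 90.9%. On the higher side, Polr3k, a subunit of RNA polymerase III, was at 64.5% against 18.2%, and Ruvbl1, a chromatin remodelling ATPase, at 63.4% against 18.2%. Dnajc15, a mitochondrial co-chaperone, and Nudt21, a pre-mRNA cleavage factor, were both at 79.6% against 36.4%.

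In cluster 10 alone 450 genes were listed, 26.6% of its 1691. Of these, 122 were higher by at least 20 points, 27.1%, and 86 lower, 19.1%, beside 23.7% and 16.4% over all its genes, and the median difference was 0.2 points. Being listed alone says that the gene passed the limits only here, and a gene close to a limit elsewhere has no value there. Moving each control share by 1 control cell towards the other library left 37 of the 122 and 17 of the 86 past 20 points. The widest difference in the lower direction in this set was that of Nup160, a scaffold protein of the nuclear pore, at 23.1% (17.3% to 29.8%) against 72.7%. Cul2, a ubiquitin ligase scaffold, was at 21.5% against 63.6%, Oxa1l, which inserts proteins into the inner mitochondrial membrane, at 26.9% against 63.6%, and the helicase gene Helz at 54.3% against 90.9%. Zfp97, at 1.6% against 36.4%, the histone demethylase gene Phf8, at 10.8% against 45.5%, the deubiquitinase gene Usp24, at 19.9% against 54.5%, Gm37065, at 20.4% against 54.5%, and the phosphatase gene Mtmr2, at 12.9% against 45.5%, followed, with Dlgap5 given above. Each of these was found in 4 to 10 of the 11 control cells.

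On the higher side of this set stood Eif3g, a translation initiation factor, in 69.9% of the cells labelled depleted (62.8% to 76.4%) and in 3 of 11 control cells, 27.3%. The histone chaperone gene Asf1a was at 59.1% against 18.2%, Mrpl41, of the mitochondrial ribosome, at 58.6% against 18.2%, and the cyclophilin gene Ppid at 66.7% against 27.3%. The phospholipase gene Pla2g12a was at 47.3% against 9.1%, Coa8, for assembly of respiratory complex IV, at 54.8% against 18.2%, R3hdm1 at 45.7% against 9.1%, and Copa, of the COPI coat, at 44.1% against 9.1%. Nfyc, a subunit of the CCAAT-binding factor NF-Y, at 37.6%, and Mtap, of methionine salvage, at 36.6%, were both at 0 of 11 control cells. Of the 61 genes at 0 in the control cells, 27 were listed here alone, and the 61 ranged from 25.3% to 51.6% in the library labelled depleted.

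Among genes of energy metabolism, 23 respiratory chain genes were listed, 4 higher and none lower by at least 20 points, with a median difference of 5.9 points. The 4 were 17.4% of those listed, under the 23.7% of all genes. They were Ndufb6, at 75.8% against 45.5%, and Ndufab1, at 80.1% against 54.5%, of complex I, and Sdhd, at 66.7% against 36.4%, and Sdha, at 69.4% against 45.5%, of complex II. Of 17 glycolysis genes, 5 were listed, none higher and 4 lower, with a median difference of -22.4 points, beside 16.4% of all genes that were lower. Of the 4, Hk1 and Bpgm met the detection limit through the control library alone and had to be lower. Hexokinase Hk1 was at 19.4% against 45.5%, Tpi1 at 59.1% against 81.8%, Bpgm at 23.1% against 45.5% and Gpi1 at 69.9% against 90.9%. The fifth, Aldoa, was at 57.0% against 63.6%. All 15 ribosomal protein genes listed were at 100% in both libraries, so their direction cannot be read from shares. Of the 8 chaperone and 3 immediate early genes listed, none differed by 20 points. The 8 chaperone genes had a median difference of -1.6 points, with Cct4 at 80.6% against 63.6%, and the 3 immediate early genes one of -10 points, with Nr4a1 at 13.4% against 27.3%.

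Of 63 interferon-stimulated genes, 15 were listed, 2 higher and 5 lower by at least 20 points, with a median difference of -13.8 points. That was 13.3% higher and 33.3% lower, beside 23.7% and 16.4% of all genes. The detection limit was met through the control library alone by 6 of the 15, 4 of the 5 lower genes among them, and through the library labelled depleted alone by 2, Ifi27 among them. Of the 7 that met it in both libraries, 1 was lower by at least 20 points, 14.3% beside 11.8% of all such genes. Beside Isg20, the lower ones were Psme2, a proteasome activator, at 54.8% against 81.8%, the nucleotide hydrolase gene Samhd1, at 10.2% against 36.4%, and the transcription factors Irf1, at 19.9% against 45.5%, and Irf9, at 11.3% against 36.4%. The higher ones were Ifi27, at 40.9% against 18.2%, and Psmb10, of the immunoproteasome, at 47.8% against 27.3%. Of 26 genes of apoptosis, 8 were listed, none higher and 3 lower, with a median difference of 10.6 points, opposite in sign to the 3. The 3 were 37.5% of those listed, beside 16.4% of all genes, and Bcl2 and Apaf1 met the detection limit through the control library alone and had to be lower. The lower ones were the survival gene Bcl2, at 12.4% against 45.5%, Apaf1, of the apoptosome, at 12.9% against 36.4%, and the cell cycle inhibitor gene Cdkn1b, at 50.5% against 72.7%. Diablo, an inhibitor of apoptosis antagonist, was at 29.0% against 9.1%, just under 20 points.

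**Figure D5:**
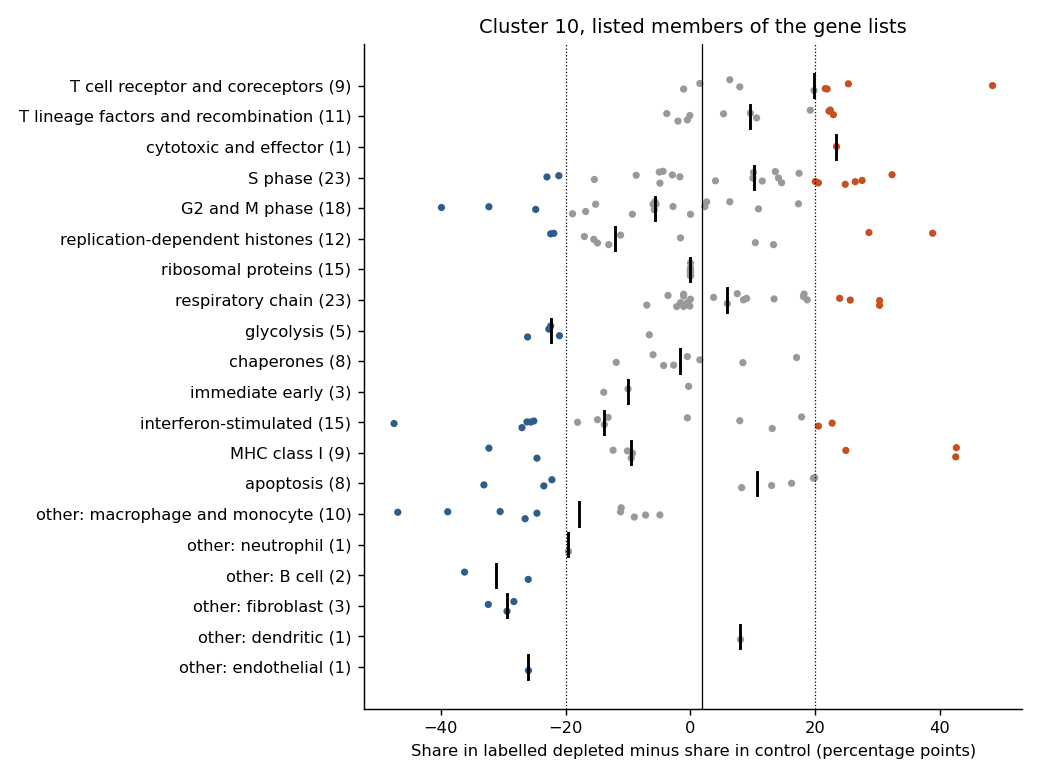
Each point is a listed gene of cluster 10 by the difference in its share of cells, labelled Yap/Wwtr1-depleted minus PostnMCM control, in percentage points (x axis), in rows by gene list with the number listed in brackets. Black ticks are list medians, the solid line is the median of all 1691 genes, 1.8 points, and the dotted lines are at 20 points either way, with points past them in orange (higher) or blue (lower). The 18 markers of other cell types, in the bottom rows, lie to the left except Bst2.

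Transcripts that mark other cell types were also found in the cells of cluster 10. Of 89 such markers, 18 were listed, and none of them was at 0 in either library. Of these, 7 met the detection limit through the control library alone and had to be lower in the library labelled depleted. Of the 11 that met it in both libraries, 10 were lower in the library labelled depleted, 5 of them by at least 20 points. Of the 1001 genes that met it in both libraries, 48.8% were lower, 11.8% by at least 20 points. The shares of the 18 summed to 918.2 points over the control cells and 517.2 over the cells labelled depleted, sums that include the 7 and describe the listed markers only. Of 19 macrophage and monocyte markers 10 were listed, 4 of them through the control library alone. The signalling adaptor gene Tyrobp was at 25.8% against 72.7%, Ctss, cathepsin S, at 24.7% against 63.6%, Pf4 at 5.9% against 36.4%, Lyz2, lysozyme, at 28.0% against 54.5%, and Csf1r, the growth factor receptor of macrophages, at 11.8% against 36.4%. Apoe was in 86.0% and 90.9% of these cells. The fibroblast markers Fn1, at 31.2% against 63.6%, Sparc, at 7.0% against 36.4%, and Col3a1, at 17.2% against 45.5%, were lower too. So were Cd74, at 27.4% against 63.6%, and H2-Ab1, at 28.5% against 54.5%, from the B cell list, and Pecam1, an endothelial marker, at 19.4% against 45.5%. S100a9, of neutrophils, was at 25.8% against 45.5%. Bst2, the exception, was at 62.4% against 54.5%. No NK, erythroid or cardiomyocyte marker was listed. The part of other cells' RNA, or of doublets, in the differences above was not tested.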

How the data were processed

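Single interstitial cells were captured on the 10x Chromium system in 1 library per genotype. According to the study's methods and the labels, the authors aligned reads with Cell Ranger 6.1.1 to GRCm39, combined both libraries without depth normalization, removed low-quality cells, and clustered the cells after SCTransform in Seurat. No doublet caller is named. The deposited table of each cluster gives, per gene, the fraction of cells of each library with a corrected count above 0, rounded to 3 decimals, which was used here as a percent. The tables also hold the authors' own average log2 fold changes, p-values and adjusted p-values over cells, which were not used. Listed genes had passed limits on detection and on the size of that fold change, and the lowest of the larger shares in the 18 tables was 25%.

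The number of cells was inferred as the smallest whole number of which all shares of a library are multiples within a rounding of 0.0005. On simulated shares for cluster 10 this recovered 11 and 186 cells in 20 of 20 runs each. A difference of at least 20 percentage points was called. Intervals are exact Clopper-Pearson intervals (scipy 1.17.1), and a share of 0 is given with the limit of 3 counts. Depth per cell is unknown. Genes named were the 12 with the largest differences each way, the 10 each way among those listed in cluster 10 alone, listed members of the gene lists (the 4 with the largest difference first), the targeted genes, Top2a, Mki67 and genes listed in at least 17 tables. 1 gene that this rule names is not reported here. Other genes given values, and the protein families, were chosen after their values were seen. The members and lists were chosen with earlier results of these data known. Positions and transcripts are those of GENCODE on GRCm39, which is not the annotation that the authors counted with. A planned search of promoter motifs was to be run only if cell cycle genes moved together, and was not run.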

Additional observations from a re-analysis of the deposited data

Results flagged for a closer look

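Of 148 genes given values, 17 differed by at least 20 points one way in cluster 10 and by at least 20 points the other way in another cluster of the same 2 libraries. The differences between clusters were not tested. A gene under 25% of cells in 1 library was listed through the other library alone, so its direction in that cluster came with the listing. In cluster 10 this holds for Pttg1, Irf9, Apaf1, Bpgm, Eif2ak1, Cdc45, Polr3k, Ifi27, H2-Q6 and Nup98. In the other cluster it holds for H2-Q6 in clusters 5 and 12, for Pttg1 in clusters 0 and 3, for Irf9 in cluster 8, and for Eif2ak1, H2-T22, Sdhd, Bpgm and Nup98. The first value of each pair is the share of the cells labelled depleted and the second that of the control cells, followed by their difference in that other cluster.

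In the fibroblast cluster, 5, Polr3k was at 28.9% and 53.7%, a difference of -24.8 points, Dnajc15 at 25.7% and 59.1%, -33.4 points, H2-T23 at 52.9% and 32.9%, 20 points, and H2-Q6 at 29.4% and 6.0%, 23.4 points. H2-Q6 was also higher in cluster 7 by 21.1 points, in cluster 12 by 25.7 points and in cluster 15 by 23.3 points. In cluster 10 it was at 2.7% against 27.3%, or 3 control cells. Among the other clusters with few control cells, Cdc45 was at 55.8% and 77.8% in cluster 6, -22.0 points. In cluster 9, Gzma was at 58.2% and 82.4%, -24.2 points, H1f4 at 43.9% and 70.6%, -26.7 points, and H2-T22 at 24.9% and 47.1%, -22.2 points.

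In the macrophage clusters, Pttg1 was higher in the library labelled depleted by 25.9 points in cluster 0, at 32.0% and 6.1%, and by 24.9 points in cluster 3, at 32.0% and 7.1%, beside a difference of -39.9 points in cluster 10 and of -37.9 points in cluster 6, at 17.7% and 55.6%. Ifi27 differed by -27.0 points in cluster 0, and Irf9 by 23.1 points there. In cluster 8, a T cell cluster in the study, Irf9 differed by 22.2 points. In small clusters, where 1 cell is worth 3 points or more in each library, H1f4 differed by -34.2 points, Sdhd by -42.7 points and S100a6 by 27.3 points in cluster 18, Eif2ak1 by 32.6 points in cluster 15, and Bpgm by 22.3 points, Apaf1 by 28.6 points and Nup98 by -25.0 points in cluster 17.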

How the results depend on the processing

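The counts of genes depend on the size called, on the detection limit and on single control cells. With 10 points in place of 20, 741 genes were higher and 585 lower, and with 30 points 106 and 70. Requiring detection in 50% of the cells of either library left 167 higher and 135 lower. Moving each control share by 1 control cell towards the other library left 121 of 400 higher and 80 of 277 lower. A ratio of shares of at least 1.5, or leaving out genes listed in at least 9 tables, kept both counts within 1.5 times. Clusters 4, 6, 7, 8, 9 and 14 were taken here as the other T and NK cell clusters. Against only these, 869 genes were listed in cluster 10 alone in place of 450. Against all clusters, detection in 50% of cells left 113, and a difference of at least 20 points 208. The inferred numbers of cells, 11 and 186, did not change under either alternative. No paired analysis was possible because the labels carry no replicate numbers and both genotypes have a single library, so that none could be left out either. With 11 control cells, a difference of 20 points is worth 2 to 3 control cells.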

Other observations

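Some families grouped after their values were seen can be described further. Of 9 listed genes for subunits of RNA polymerases II and III, 7 were higher in the library labelled depleted by at least 20 points and none lower, with a median difference of 22.7 points, beside 23.7% of all listed genes. Besides Polr3k they included Polr2e, at 53.2% against 27.3%, and Polr2c, at 51.6% against 27.3%. Of 19 mitochondrial ribosomal protein genes, 8 were higher and 2 lower, with a median of 17 points, or 42.1% and 10.5% beside 23.7% and 16.4% of all listed genes. Mrpl11, at 46.2% against 9.1%, was 1 of 5 that met the detection limit through the library labelled depleted alone. Of 16 proteasome genes, 5 were higher and 2 lower, with a median of 15.85 points, or 31.2% and 12.5% beside the same shares of all listed genes. Psmc4 was at 78.5% against 45.5% and Psmd7 at 74.2% against 45.5%.

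Of 9 nucleoporin genes 4 were higher and 2 lower, or 44.4% and 22.2% beside 23.7% and 16.4% of all listed genes, and 8 of the 9 met the detection limit through 1 library alone. Nup98 was at 28.0% against 0 of 11 control cells, while Nup50, at 45.7% against 81.8%, was lower beside Nup160. Of 5 receptor genes for interferons and interleukins, none was higher and 3 lower by at least 20 points, beside 16.4% of all listed genes that were lower. Ifngr1, of the interferon gamma receptor, was at 62.9% against 100%, and Ifnar2, of the type I interferon receptor, at 26.9% against 63.6%. Among genes at 0 of 11 control cells were Fh1, fumarate hydratase, at 41.9%, Trip13, a checkpoint ATPase, at 30.6%, and Wee1, the kinase that restrains entry into mitosis, at 26.3% of the cells labelled depleted.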
